A study of Homo sapiens with 2 samples.

Results

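Unconverted cytosines were mapped on the mRNAs of 10 genes whose products shape the endoplasmic reticulum (ER) or carry proteins into it: RTN4, RTN3, SEC61A1, SEC61B, SSR2, SSR3, SSR4, SPCS1, SPCS2 and SPCS3. Their sites were the cytosines with a coverage of at least 10 on same-strand exons of GENCODE basic transcripts (GRCh37), where coverage is the sum of the unconverted and converted read counts. MCF10A had 2087 of them among 1584002 kept sites, MDA-MB-468 had 1395 among 1271253, and 1332 were kept in both. RNA BS-Seq was carried out on poly(A)+ RNA of MCF10A, a nontumorigenic mammary epithelial line, and MDA-MB-468, a breast cancer line, with 1 library each. No drug or genetic treatment is given for either line. The labels name the same medium for both lines whereas the methods name different ones, so medium and cell line cannot be told apart, and with 1 library per line no spread between cultures could be estimated.

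Reticulons are hairpin membrane proteins that bend the ER membrane into tubules, and RTN4 is also known as Nogo, an inhibitor of axon growth. The Sec61 channel, built from an alpha (SEC61A1), a beta (SEC61B) and a gamma subunit, lets nascent secretory and membrane proteins cross or enter the ER membrane. The translocon-associated protein complex (SSR2, SSR3, SSR4) sits beside the channel, and the signal peptidase complex (SPCS1, SPCS2, SPCS3) cuts signal peptides on its lumenal side. Bisulfite turns cytosine into uracil but leaves 5-methylcytosine (m5C), so an unconverted cytosine can be an m5C or a cytosine that the treatment missed. NSUN2, an RNA methyltransferase, is known to act on cytosines followed by a G-rich motif near hairpins of mRNA and tRNA.

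The main calls lay in 4 short windows, printed 5′ to 3′ from the GRCh37 reference as DNA letters with the called m5C sites in capitals. The RTN4 coding stretch lies at chr2:55277244-55277271 and the RTN4 5′UTR stretch at chr2:55277464-55277491, both on the minus strand in the first exon. The RTN3 3′UTR site lies within chr11:63526349-63526377 and the SEC61A1 3′UTR stretch within chr3:127789929-127789956, both on the plus strand and in the last exon. They are shown because the first, second and last hold runs of neighbouring calls in GC-rich letters, while the RTN3 site is a single C followed by AGGG.
RTN4 coding stretch: gagaggaagcCCgCCgCCgggctgtccg
RTN4 5′UTR stretch: gacgcggcCCCggCggCggCggcagcag
RTN3 3′UTR site: tctgccactatcccCagggaaggaaaggc
SEC61A1 3′UTR stretch: acagggcCaCcgCCacagccCggcagag
The GC content was 78.6% in the RTN4 coding stretch, 89.3% in the RTN4 5′UTR stretch, 58.6% around the RTN3 site and 75% in the SEC61A1 stretch.

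Kept sites summed to 60580227 counts for MCF10A and 42429746 for MDA-MB-468 (median coverage 18 each). The background, the share of unconverted counts over all kept sites, was 1.99% for MCF10A and 1.81% for MDA-MB-468. An m5C site was called where the one-sided Fisher's exact p for an excess over this background, adjusted by Benjamini-Hochberg over every kept site of that library, was under 0.05. Of the labelled cell types, the keratins KRT8 and KRT18 were covered in both lines, and EGFR had 151119 counts in MDA-MB-468 against 13249 in MCF10A. The epithelial markers EPCAM and CDH1 had no kept site in MCF10A, and KRT14 had none in either line. None of the 4 leukocyte and 3 endothelial markers had a kept site, and of 3 fibroblast markers only COL1A1 did, with 4189 counts in MDA-MB-468.

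Of the 2087 MCF10A sites, 21 (1.01%) were m5C sites, and they lay in RTN4 with 12, SEC61A1 with 7, RTN3 with 1 and SSR2 with 1. In MDA-MB-468, 1 of the 1395 sites (0.0717%) was an m5C site, on RTN3. For comparison, 0.960% of all kept sites were called for MCF10A and 0.840% for MDA-MB-468, and of the nuclear ones alone 0.851% and 0.742%. The share on the 10 genes was thus near the background in MCF10A and below it in MDA-MB-468, where the upper bound of its 95% Wilson interval was 0.405%. SEC61B, SSR3, SSR4, SPCS1, SPCS2 and SPCS3 had no call in either line. Unadjusted p-values under 0.05 were found at 148 sites of MCF10A and 37 of MDA-MB-468. All intervals cover counting error only, and they are too narrow because neighbouring cytosines share reads.

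RTN4 is encoded on the minus strand of chromosome 2 between 55199323 and 55277964. In MCF10A it had 424 sites with a median coverage of 55, and 597 of 33496 counts (1.78%, 95% Wilson interval 1.65% to 1.93%) were unconverted. In MDA-MB-468 it had 181 sites with a median coverage of 19, and 105 of 3754 counts (2.80%, 2.32% to 3.37%) were unconverted. The share was below the background of the library in MCF10A and above it in MDA-MB-468, although all of the RTN4 calls were in MCF10A. Over the 181 RTN4 sites kept in both lines the shares were 1.62% and 2.80%. No unconverted read was counted at 46.0% of the RTN4 sites of MCF10A and at 58.0% of those of MDA-MB-468.

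Most RTN4 counts, 85.3% in MCF10A and 95.2% in MDA-MB-468, came from the first of the 9 exons of its longest coding transcript, ENST00000337526, a GC-rich exon (73.6%) that holds the 5′UTR and the start of the coding sequence. In MCF10A 292 of the 298 cytosines of this exon were kept, with 483 unconverted of 28578 counts (1.69%), and all 12 calls lay there. In MDA-MB-468 165 of its cytosines were kept, with 98 unconverted of 3574 counts (2.74%), and none was called. The long exon that marks the Nogo-A isoform, which has 2400 nt and 445 cytosines and is part of 5 of the 8 basic transcripts, had no site in the counts used here in either line. The fourth exon had 64 unconverted of 2380 counts (2.69%) at 48 sites in MCF10A and no kept site in MDA-MB-468. The last exon, mostly 3′UTR, had 47 of 2041 counts unconverted for MCF10A (2.30%) against 7 of 180 for MDA-MB-468 (3.89%), with no call. The MCF10A calls on RTN4 thus lay near the 5′ end of the mRNA, where the coverage was also highest.

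**Figure D1:**
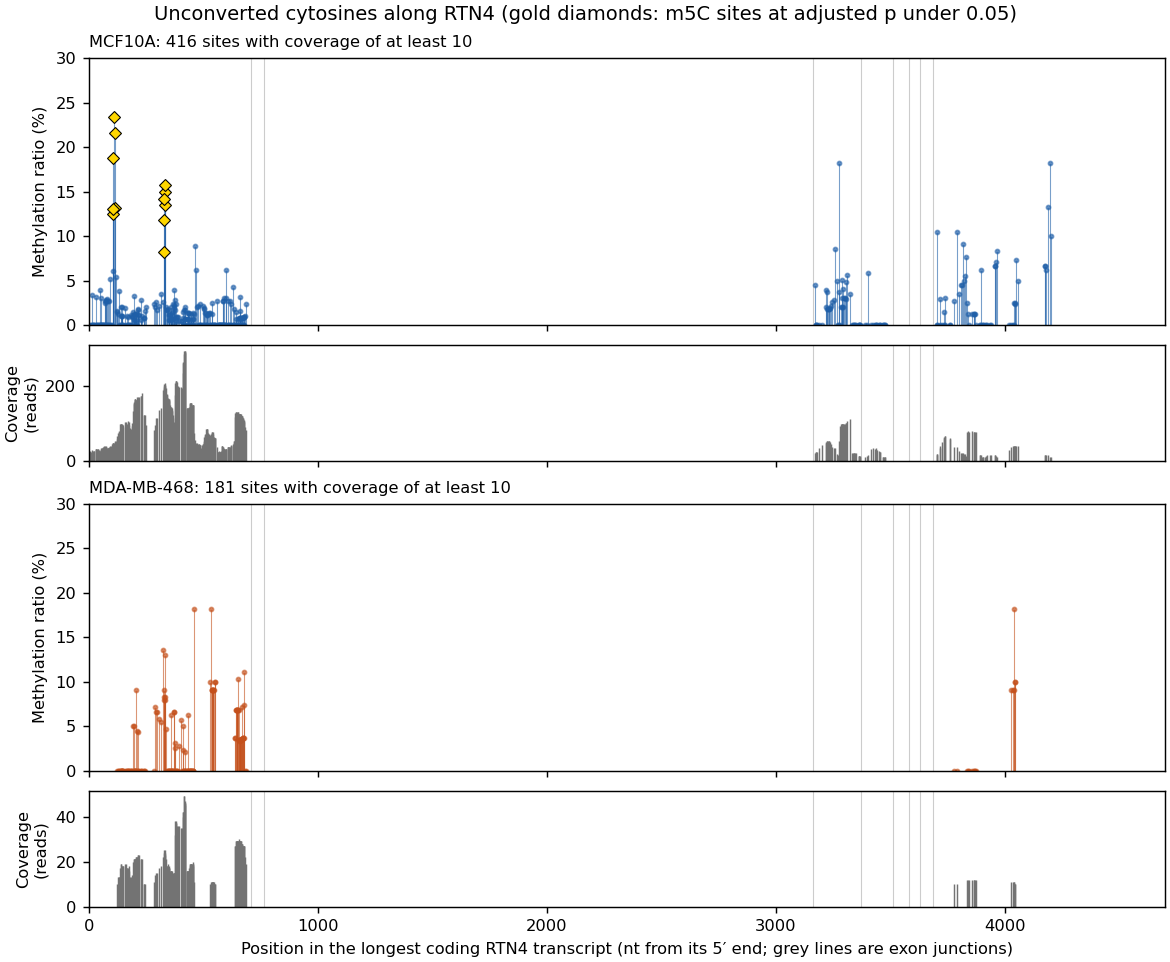
Methylation ratio (unconverted reads as a percentage of coverage, upper panel of each pair) and coverage in reads (lower panel) at each kept cytosine of the longest coding RTN4 transcript, by position in nt from its 5′ end. Each line of bars is 1 library, the coverage axes differ in scale between the lines, grey verticals mark exon junctions and gold diamonds mark m5C sites. The 12 m5C sites of MCF10A form a pair of narrow peaks in the first exon, and MDA-MB-468 has none.

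The RTN4 coding stretch spanned 8 nt, 55277254 to 55277261, and its 6 cytosines were all called in MCF10A. They are the second and the last bases of codons 59, 60 and 61. Read from 5′ to 3′, the unconverted reads in MCF10A were 16 of 195, 24 of 202, 29 of 205, 28 of 208, 32 of 203 and 30 of 200, or 8.21% to 15.8%. The adjusted p ranged from 1.58e-16 to 0.000393. The cytosine immediately upstream had 5 of 191 (2.62%) and the next one downstream 4 of 196 (2.04%), so the ratio rose and fell within 1 to 4 nt of the stretch. In the 50 nt on each side the shares were 2.50% over 7 sites upstream and 1.47% over 27 sites downstream.

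MDA-MB-468 had the same 6 cytosines at a coverage of only 22 to 25. Their unconverted reads, 5′ to 3′, were 2 of 22, 2 of 24, 2 of 25, 2 of 25, 2 of 24 and 3 of 23, in sum 13 of 143 counts (9.09%). The sum in MCF10A was 159 of 1213 (13.1%). The fewest unconverted reads called at these coverages were 5, a ratio of 20% or more, so ratios as high as those of MCF10A were not detectable as calls at this depth. The two-sided Fisher's exact test between the libraries gave unadjusted p from 0.544 to 1 for the 6 sites. At 55277255, the called site with the lowest adjusted p, MCF10A exceeded MDA-MB-468 by 7.43 percentage points with a 95% Newcombe interval of -10.6 to 15.7, which includes 0. The cytosine just upstream of the stretch had 3 of 22 in MDA-MB-468 (13.6%), the highest unconverted count on RTN4 there, which 4 sites shared.

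The RTN4 5′UTR stretch spanned 12 nt, 55277472 to 55277483, at transcript positions 105 to 116 against 327 to 334 for the coding stretch. Its 6 cytosines were called in MCF10A with 6 of 46, 6 of 48, 9 of 48, 11 of 47, 11 of 51 and 7 of 53 unconverted reads, 5′ to 3′. The ratio was highest in the middle, 23.4% (95% Wilson interval 13.6% to 37.2%, Fisher's exact adjusted p = 4.41e-07), and was 13.0% at the 5′ end and 13.2% at the 3′ end. The next cytosines outward had 3 of 49 on the 5′ side and 3 of 55 on the 3′ side, and the shares in the 50 nt on the 5′ and 3′ sides were 1.23% and 1.06%. In MDA-MB-468 none of the 6 cytosines reached a coverage of 10, and 5 of them were deposited with 5 reads each. Those held 6 unconverted of 25 counts, too few for a call or a comparison. The 5′UTR of RTN4 in MDA-MB-468 had 14 kept sites with 0 unconverted of 227 counts, and all of these lay outside the stretch.

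**Figure D2:**
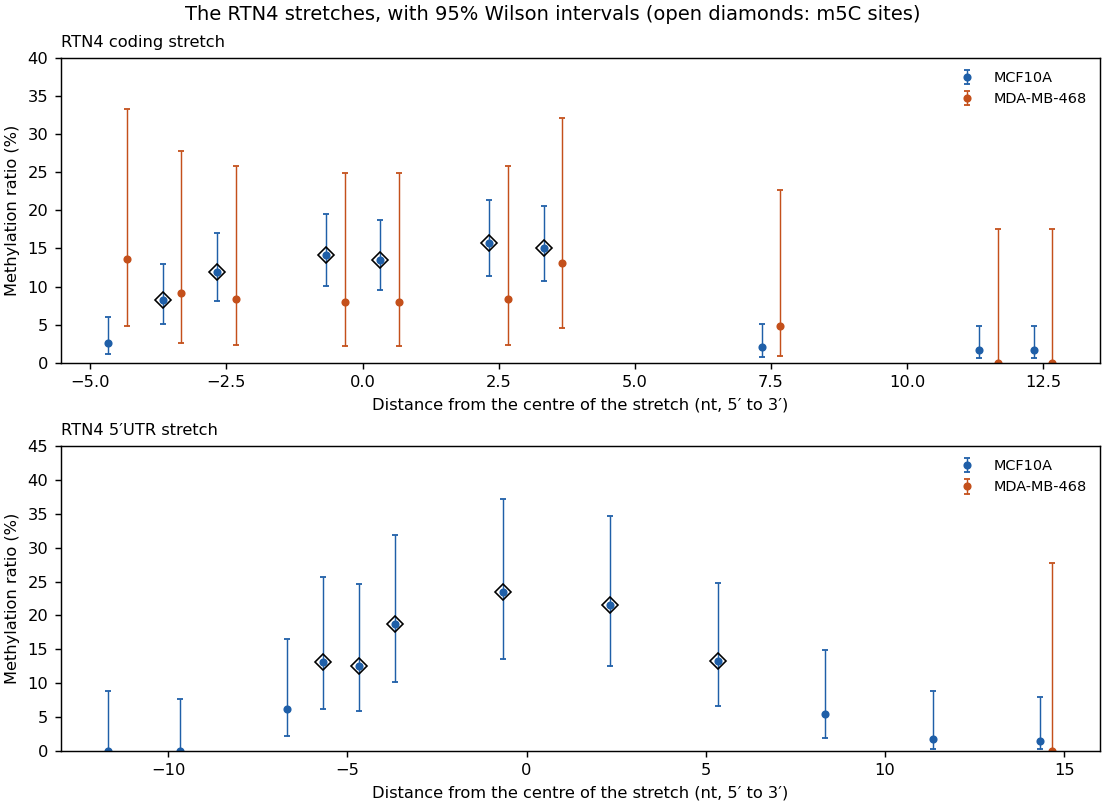
Methylation ratio (%) at each kept cytosine within about 15 nt of the RTN4 coding stretch (upper panel) and 5′UTR stretch (lower panel), by distance in nt from the centre of the stretch in the 5′ to 3′ direction. Points are single libraries of MCF10A (blue) and MDA-MB-468 (orange), bars are 95% Wilson intervals and open diamonds mark m5C sites. MCF10A rises to 15.8% in the coding stretch and 23.4% in the 5′UTR stretch. In the upper panel the wide MDA-MB-468 intervals overlap those of MCF10A. The lower panel has only 1 MDA-MB-468 site, with 0 of 10 reads unconverted, and it lies outside the stretch.

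The 12 sites of both stretches held 209 of the 597 unconverted RTN4 counts of MCF10A (35.0%) in 4.50% of its counts. They were called for their excess in these same counts, so a raised share in them follows from the selection. Outside the stretches RTN4 had 388 unconverted of 31990 counts in MCF10A (1.21%), against 92 of 3611 in MDA-MB-468 (2.55%). Leaving out sites called in MCF10A lowers the MCF10A share by selection, so these shares are not a like comparison of the lines. The longest series of neighbouring RTN4 sites with at least 2 unconverted reads in MDA-MB-468 lay elsewhere, at 55276934 to 55276947 in the coding part of the first exon. There 9 sites over 14 nt each had 2 or 3 unconverted of 29 reads, 19 in sum, and 8 of the 9 had 2. At 7 of these positions with an unadjusted p under 0.05, MCF10A had 0 or 1 unconverted of 125 to 132 reads. None was called in MDA-MB-468, and the deposited counts do not tell whether the same reads were unconverted at each site.

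RTN4 was the gene whose coverage fell most between the lines. Over the shared sites its mean coverage, scaled to a library of 10000000 nuclear counts, was 22.2 for MCF10A against 4.93 for MDA-MB-468, a 4.50-fold difference. SSR4 moved the other way, with 11.9 for MCF10A against 35.5 for MDA-MB-468 (2.99-fold), and the ratio of MDA-MB-468 to MCF10A in the 8 other genes lay between 0.558 and 1.79. Coverage was limited by a cap on duplicate reads and fewer expressing cells cannot be told apart from less RNA per cell in bulk RNA, so these folds describe depth rather than expression.

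**Figure D3:**
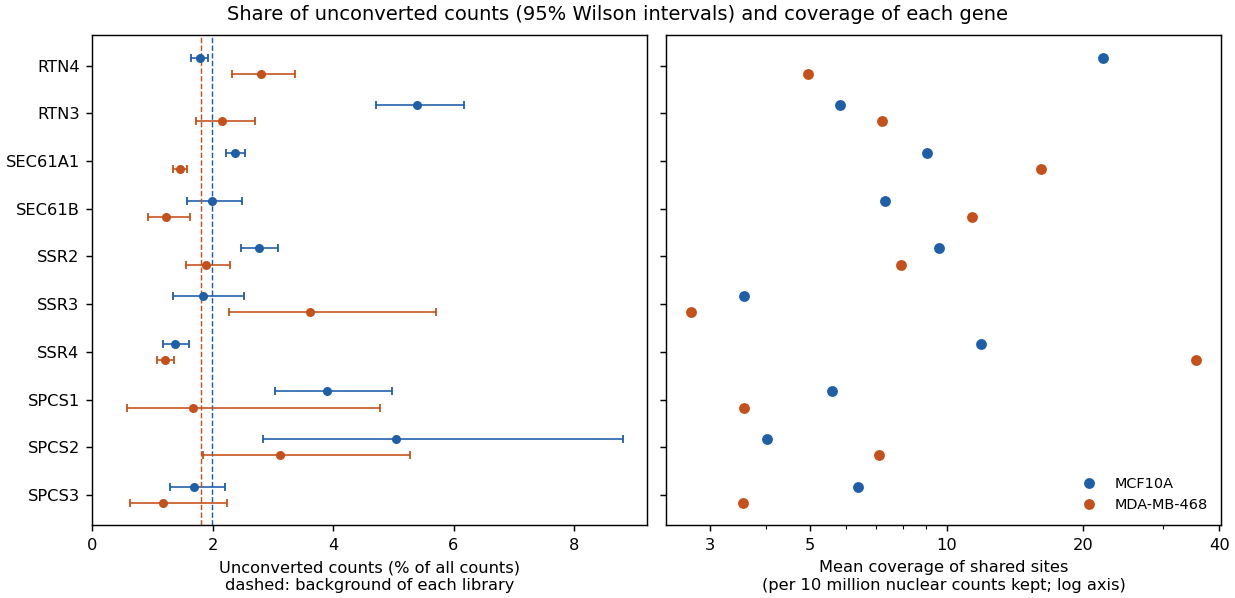
Left, unconverted counts as a percentage of all counts of each gene, with 95% Wilson intervals and the background of each library as a dashed line. Right, mean coverage of the sites kept in both lines, in counts per 10000000 nuclear counts kept, on a log axis. Blue is MCF10A and orange MDA-MB-468, 1 library each. RTN3 stands at 5.40% in MCF10A against 2.16% in MDA-MB-468, and RTN4 has the largest gap in coverage, 22.2 against 4.93.

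RTN3, on the plus strand of chromosome 11, had the called site with the highest methylation ratio in both lines. At 63526363 in its 3′UTR, 17 of 45 reads were unconverted in MCF10A (37.8%, 95% Wilson interval 25.1% to 52.4%, Fisher's exact adjusted p = 4.22e-15). In MDA-MB-468 the same cytosine had 22 of 45 (48.9%, 35.0% to 63.0%, Fisher's exact adjusted p = 1.55e-23). The difference of -11.1 percentage points (95% Newcombe interval -30.1 to 9.06) was not detectable at this depth (two-sided Fisher's exact test between the libraries, p = 0.395, adjusted p = 1). Neighbouring cytosines did not share the level, with at most 3 unconverted reads at any of the 23 other sites around it in either library.

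The RTN3 site is followed by AGGG and thus has the letters CNGGG, the context associated with NSUN2. Searched on the RNA strand, this motif was present at 3.18% of the kept nuclear cytosines of MCF10A, of which 2.2% were called, and at 3.5% of those of MDA-MB-468, of which 1.84% were called. On the 10 genes it was found at 44 sites of MCF10A and 39 of MDA-MB-468. Of these 3 were called in MCF10A, in RTN4, RTN3 and SEC61A1, and 1 in MDA-MB-468, the RTN3 site. The uncalled ones reached a ratio of 13.3% (MCF10A) or 10% (MDA-MB-468). The RTN3 site was not paired in the predicted structure of the full-length transcript, with a pairing probability of 0.242.

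A stretch of chromosome 4, 146296836 to 146299109, matches RTN3 at 95.5% identity over 45.5% of its transcript, and it includes the letters of the site and the 15 nt on each side without a difference. The counts used here list 0 sites on this copy in either line. Reads of the copy and of RTN3 cannot be told apart over these letters, and the part of the copy in the RTN3 ratio was not tested.

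RTN3 also had the highest share of unconverted counts among the 10 genes in MCF10A, 200 of 3706 (5.40%, 95% Wilson interval 4.71% to 6.17%) at 118 sites, above 97.2% of the 5936 protein-coding genes with at least 50 kept sites. In MDA-MB-468 it was 72 of 3339 (2.16%, 1.72% to 2.71%) at 125 sites. The excess in MCF10A came mainly from the first exon, with 125 of 2179 counts unconverted (5.74%) against 14 of 1786 (0.784%) in MDA-MB-468. There, 30 neighbouring sites over 71 nt (63449107 to 63449177) had 2 to 5 unconverted of 19 to 53 reads each, 100 in sum, which was 50% of the unconverted counts of the gene. None of the 30 was called and none of the 99 shared RTN3 sites had a p under 0.05 between the libraries (Fisher's exact test, lowest unadjusted p = 0.0638). The long exon of RTN3 (2331 nt), like that of RTN4, had no site in the counts used here.

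SEC61A1, which forms the pore of the translocon, is on the plus strand of chromosome 3 and had the most sites of the 10 genes. In MCF10A 801 of 33790 counts (2.37%, 95% Wilson interval 2.21% to 2.54%) were unconverted at 757 sites, and in MDA-MB-468 550 of 37871 (1.45%, 1.34% to 1.58%) at 567 sites. All 7 calls in MCF10A were in the 3′UTR. Of these, 5 formed the stretch at 127789936 to 127789949, with 8 of 77, 8 of 72, 9 of 74, 10 of 70 and 7 of 68 unconverted reads (10.3% to 14.3%, Fisher's exact adjusted p 0.000228 to 0.0443). In the 50 nt on each side the shares were 3.58% upstream, with a ratio of up to 9.72%, and 3.82% downstream. The stretch lay within a broader series of 24 sites over 69 nt with at least 2 unconverted reads each, 107 of 1789 counts (5.98%). The single sites were 127789583 with 9 of 86, the call with the highest coverage on this gene (Fisher's exact adjusted p = 0.00751), and 127789883 with 6 of 50 (adjusted p = 0.0493).

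MDA-MB-468 was covered more deeply over the SEC61A1 stretch, at 142 to 159 reads, and its summed share was lower. The 9 kept cytosines of the stretch summed to 41 unconverted of 1335 counts (3.07%) in MDA-MB-468 and 60 of 640 (9.38%) in MCF10A. The called sites had 5 of 159, 3 of 153, 6 of 151, 4 of 146 and 5 of 142 unconverted reads in MDA-MB-468, each a lower ratio than in MCF10A. The stretch was chosen by its calls in MCF10A alone, which by itself favours lower ratios in the other library. Its neighbouring sites also share reads, so their common direction is not independent support. The lowest p between the libraries on any of the 10 genes was at 127789942, with 14.3% in MCF10A and 2.74% in MDA-MB-468 (difference 11.5 percentage points, 95% Newcombe interval 4.0 to 21.7, two-sided Fisher's exact test p = 0.00235), and after adjustment over all 812729 shared sites it was 1. The depth of MDA-MB-468 was thus above that of MCF10A at this stretch, in contrast to RTN4, where it was lower.

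**Figure D4:**
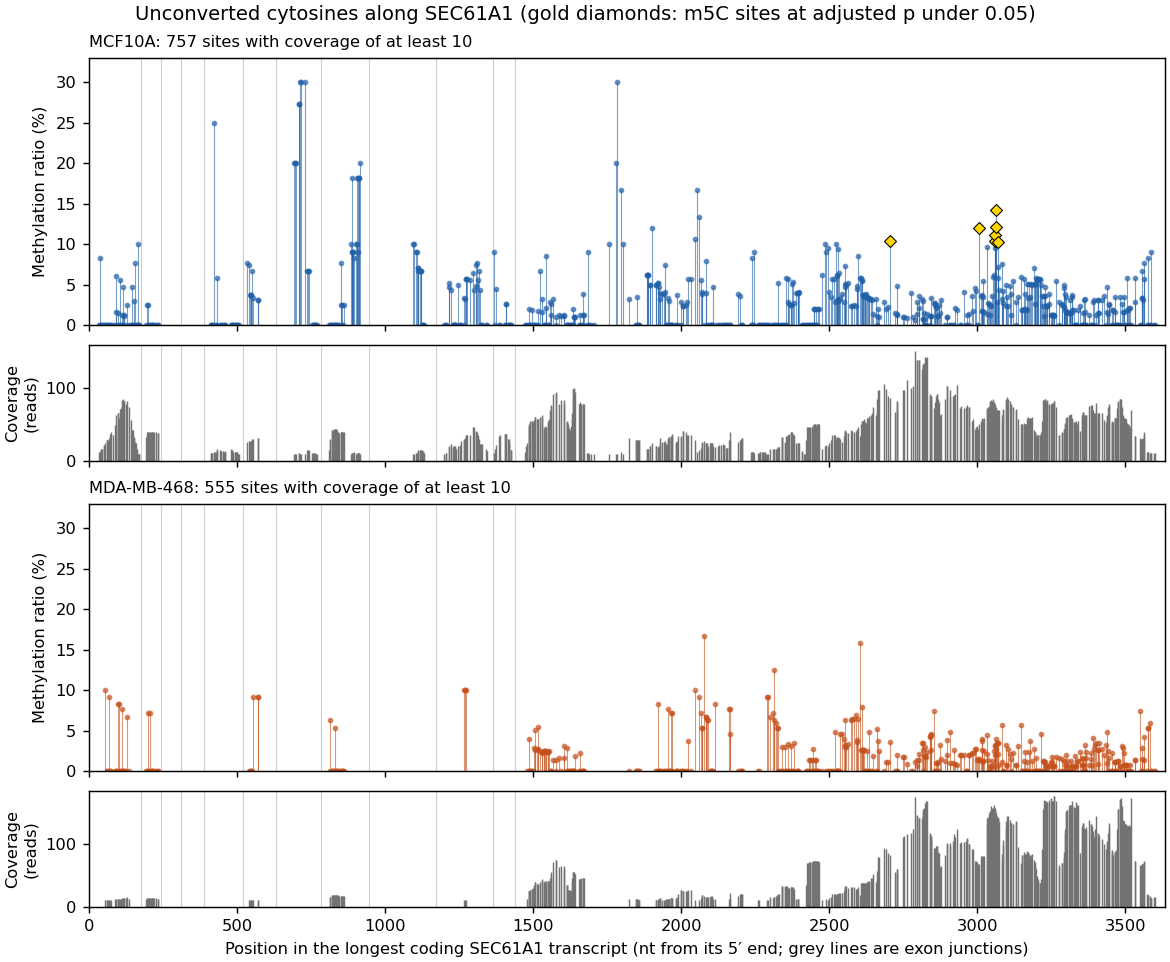
Methylation ratio (%) and coverage (reads) at each kept cytosine of the longest coding SEC61A1 transcript by position in nt from its 5′ end, in the same layout as the RTN4 profile, with different coverage axes for the lines. The 7 m5C sites of MCF10A (gold diamonds) lie in the 3′UTR in the last exon, and points of up to 30% upstream have only 3 unconverted of 10 reads.

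**Figure D5:**
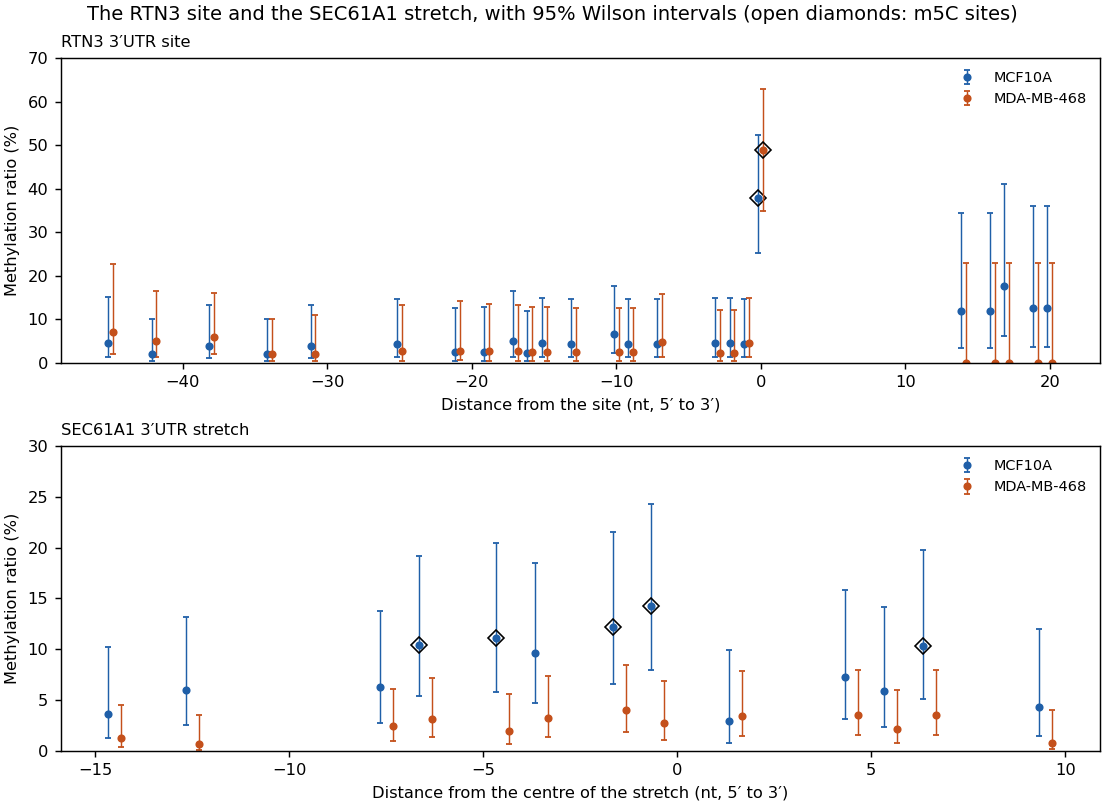
Methylation ratio (%) at the kept cytosines around the RTN3 3′UTR site (upper panel) and the SEC61A1 3′UTR stretch (lower panel), by distance in nt in the 5′ to 3′ direction. Points are single libraries of MCF10A (blue) and MDA-MB-468 (orange), bars are 95% Wilson intervals and open diamonds mark m5C sites. The RTN3 site stands highest at 37.8% and 48.9%, with MCF10A sites downstream at up to 17.6%. The SEC61A1 stretch reaches 14.3% in MCF10A and at most 3.97% in MDA-MB-468.

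The beta subunit SEC61B had no call, with 74 of 3737 counts unconverted (1.98%) at 93 sites in MCF10A and 47 of 3848 (1.22%) at 82 sites in MDA-MB-468. Its sites with the most unconverted reads had 5 of 100 (MCF10A) and 3 of 69 (MDA-MB-468). Of the translocon-associated proteins, SSR2 had 298 of 10777 counts unconverted (2.77%) at 228 sites in MCF10A and 100 of 5301 (1.89%) at 159 sites in MDA-MB-468. Its only call, 155979295 in the 3′UTR on the minus strand of chromosome 1, rested on 4 of 11 reads in MCF10A (36.4%, 95% Wilson interval 15.2% to 64.6%, Fisher's exact adjusted p = 0.00620). The neighbouring sites of SSR2 within 50 nt reached 30% on the 5′ side and 27.3% on the 3′ side without a call, and the position was not among the sites of MDA-MB-468 used here.

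SSR3 had 38 of 2068 counts unconverted (1.84%) in MCF10A and 17 of 470 (3.62%, 95% Wilson interval 2.27% to 5.72%) in MDA-MB-468, where its 42 sites had a median coverage of 10. SSR4, the most deeply covered of the 10 genes in MDA-MB-468 with up to 723 reads at a site, had low shares in both lines, 152 of 11046 (1.38%) and 278 of 22924 (1.21%). Its highest count there, 12 unconverted of 688 reads, was a ratio of 1.74% and close to the background. SSR3 and SSR4 sites with the most unconverted reads in MCF10A had 3 of 23 and 4 of 114.

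The signal peptidase genes had a median coverage of 15 (SPCS1), 25 (SPCS2) and 36 (SPCS3) in MCF10A. In MDA-MB-468 it was 16, 19 and 14. SPCS1 had 60 of 1539 counts unconverted (3.90%) at 90 sites in MCF10A and 3 of 180 (1.67%) at 12 sites in MDA-MB-468, and its sites with the most unconverted reads had 3 of 10 and 2 of 16. SPCS2 had 11 of 218 (5.05%) at 9 sites and 13 of 416 (3.12%) at 19 sites, with at most 3 of 19 and 2 of 12 at a site. All SPCS2 sites lie in a stretch that matches chromosome 1 at 99.6% identity, where 26 and 13 sites were deposited, so its counts are uncertain. SPCS3 had 52 of 3083 (1.69%) at 86 sites and 9 of 762 (1.18%) at 51 sites, with at most 4 of 70 and 1 of 10. A call needed 4 unconverted of 10 reads, 5 of 30 or 6 of 50, so at the lower coverages ratios below these were not detectable, and the limit was lower at the deeper SPCS3 sites of MCF10A.

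Between the lines no site of the 10 genes differed after adjustment, 0 of 1332, where 0.0893% of all shared sites did. Unadjusted, 22 of the 1332 sites (1.65%) had p under 0.05 by the two-sided Fisher's exact test, as did 9284 of all 812729 shared sites. A Wald test against the ratio of the background odds gave 0 adjusted and 22 unadjusted, of which 16 were in RTN4, 5 in SEC61A1 and 1 in SSR2. Of the 22 by Fisher's exact test, the 11 in RTN4 were all higher in MDA-MB-468, the 10 in SEC61A1 were all higher in MCF10A, and 1 in SSR2 was higher in MDA-MB-468. At each of the 22 the higher ratio was in the library with the lower coverage. The coverage was 22 reads in MDA-MB-468 against 191 in MCF10A at 55277262 in RTN4. It was 70 in MCF10A against 146 in MDA-MB-468 at 127789942 in SEC61A1. Whether depth set the direction was not tested. These tests compare the libraries and not the conditions.

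Across the 10 genes the m5C sites of MCF10A fell 6 in 5′UTRs, 6 in coding sequence and 9 in 3′UTRs, out of 317, 908 and 862 sites. Of the 21, 9 were followed by G, a context that made up 14.7% of the sites. Most of the 9 lay in the RTN4 stretches, where neighbouring cytosines share reads, so they are not independent. The share of this context among all calls of the library was not tested. In the predicted structures 2 of the 21 were paired, both in the RTN4 coding stretch, against 11.4% of all sites of the genes. At the gamma used, only pairs of very high probability count as paired, so the other calls are not shown to be single-stranded. A site was labelled paired if it was so in any basic transcript. The probabilities given are those of the longest coding transcript, so label and probability can differ. The SEC61A1 calls, none of them counted as paired, had pairing probabilities of 0.433 to 0.882. The pairing probabilities over the RTN4 coding stretch ranged from 0.0137 to 0.986, with the 2 paired sites at its 5′ end. In the RTN4 5′UTR stretch none of the 6 was paired, at probabilities of 0.374 to 0.775.

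The same processes (ER shaping, translocon, signal peptidase, signal recognition particle and oligosaccharyltransferase) were represented by 33 other listed genes. In MCF10A 30 had kept sites and 9 had a call, namely REEP5, CKAP4, SEC61G, SRPRA, RPN2, DDOST, STT3A, STT3B and KRTCAP2. In MDA-MB-468 27 had kept sites and 2 had a call, SEC61G and DDOST. Of all genes with kept sites, 21.2% had a call for MCF10A and 17.0% for MDA-MB-468. SEC61G, the gamma subunit of the same channel, held 46 of the 76 calls of the list in MCF10A and all of its 33 differential sites, with 777 of 1350 counts unconverted in MCF10A (57.6%) against 609 of 17442 in MDA-MB-468 (3.49%). CKAP4, an ER sheet protein, had 11 calls in MCF10A and none in MDA-MB-468, and DDOST had 8 and 7.

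Among 1427 protein-coding genes with at least 200 kept sites in each line, those closest to RTN4 in the share of unconverted counts in both lines were ANKRD52 (1.67% and 2.86%), ANPEP (1.69% and 2.66%) and ESYT2 (1.98% and 2.84%). The measure was the sum of the absolute differences, over 2 libraries only.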

How the data were processed

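Poly(A)+ RNA was treated with sodium bisulfite at 60 degrees for 8 hours and sequenced, 1 library per line. The authors trimmed reads with Trim Galore (Phred 20), used MeRanTK for alignment to hg19 and for counting each cytosine, with a base quality of at least 30 and at most 10 duplicate reads. The submitters' processing notes name Trim Galore and Bismark, and versions are not given in the sources used here. The deposited values are counts of unconverted and converted reads per cytosine without normalization, starting at a coverage of 5 and including introns. Read duplication, incomplete conversion and copies of a gene can each change a ratio, and the counts do not show which cytosines were read together.

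The 10 genes and the lists of other genes and markers were chosen with earlier results of these data known. Kept sites had 10 or more reads and lay on same-strand exons of basic transcripts (GENCODE release 44, GRCh37 coordinates) or on mitochondrial RNA. Calls used Fisher's exact test, one-sided, with the summed counts of the library as background, and comparisons used its two-sided form at each shared site, each adjusted by Benjamini-Hochberg over all kept sites at 0.05. The QNB test of the methods was not run, since it was not installed. Structures of the full-length transcripts were predicted with ViennaRNA 2.7.2 at 70 degrees with a maximum expected accuracy gamma of 0.1 and a pairing distance of up to 150 nt, as in the methods. Called sites at most 10 nt apart formed a stretch, and series of sites with at least 2 unconverted reads allowed gaps of up to 25 nt. Genomic copies were found with BLAST+ 2.17.0 (at least 95% identity over 100 nt). Named sites were, on RTN4, every stretch, and on each other gene the call with the highest coverage or, without a call, the site with the most unconverted reads. Shares carry 95% Wilson intervals and differences Newcombe intervals. Computation used pysam 0.24.0, numba 0.67.0, pandas 2.3.3, scipy 1.17.1 and numpy 2.4.6 under Python 3.11.15, and the code was tested on simulated counts. Alternatives changed the background, coverage minimum, test, ratio minimum, site set, structure filter, transcript and overlapping exons. Leaving out sites with a genomic copy was added after seeing the data. Mitochondrial sites entered the background and the adjustment only.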

Additional observations from a re-analysis of the deposited data

How the results depend on the processing

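The 21 m5C sites of MCF10A became 19 to 23 under every alternative but the minimum methylation ratio. With a methylation ratio of at least 0.2 they fell to 4, and the 12 RTN4 sites to 2, since most calls lay under that ratio. The structure filter left 10 RTN4 sites. With a coverage minimum of 20 in MCF10A, SEC61A1 had 9 calls against 7, RTN3 had 2 against 1 and the SSR2 call was lost. SEC61A1 had 5 with all deposited sites and 0 with the minimum ratio. The single site of MDA-MB-468, in RTN3, was called under every other alternative, but leaving out sites with a genomic copy, an alternative chosen after seeing the data, left 0, because the RTN3 site lies in such a copy. No RTN4 site was called in MDA-MB-468 and no site differed between the lines under any alternative run. The share of unconverted RTN4 counts ranged from 1.67% to 1.84% in MCF10A and from 2.70% to 3.37% in MDA-MB-468. Depth limits the comparison on the RTN4 coding stretch, where 5 unconverted reads were the fewest called at the 22 to 25 reads of MDA-MB-468. No paired analysis was possible because each line has 1 library.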
